A study of Mus musculus with 2 samples.

Results

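Ion channel genes of the adrenal gland were described from total RNA sequencing of a single group of mice. The genes examined encode subunits of potassium, calcium and sodium channels and were chosen by name, with earlier results of these data known. Protein-coding genes were taken whose symbol starts with Kcn, Cacn or Scn and names a channel subunit, leaving out Kcnk3, Kcnk9, Kcnj5, Cacna1h, Cacna1d and Scnm1. This gave 131 of 55536 annotated genes, made up of 90 potassium, 24 calcium and 17 sodium channel genes. The group consisted of female mice of a 5xFAD by CAST cross, aged 8 to 10 months. 5xFAD is a transgenic model of Alzheimer's disease whose human transgenes are driven by the Thy1 promoter, and CAST is a wild-derived strain. The group held 2 biological replicates, named mouse 2 and mouse 1 by replicate number, and 300 ng of RNA with ERCC spike-in RNA entered each library. Both carried a single donor identifier, so their being separate animals rests on the replicate numbers, and any p-value sets these 2 libraries against each other, where a difference may be technical. No control group or other strain was analysed here. Transgene carriage was not checked.

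Voltage-gated calcium channels admit the calcium that drives hormone secretion in chromaffin cells, the catecholamine-releasing cells of the adrenal medulla, and that stimulates aldosterone synthesis in the outer cortex. Potassium channels hold the membrane at a negative voltage and end action potentials, and sodium channels start them. Each channel joins pore-forming subunits, which carry the ions, with auxiliary subunits that set the number of channels at the membrane and their gating.

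The libraries held 32192201 expected counts in genes in mouse 2 and 36558609 in mouse 1. Expected counts are reads that a model assigns to genes, and TPM scales them to length and to a fixed total over all genes, structural RNA included. TPM ran higher in mouse 2 than scaled counts did. Nuclear protein-coding genes summed to 323270 TPM in mouse 2, against 294559 TPM in mouse 1, and their median log2 ratio of TPM, mouse 2 over mouse 1, was 0.17 among genes at 1 TPM or more in both. Levels below are therefore TPM, and differences between the mice are log2 ratios of counts scaled by TMM, on which the median over all tested genes was 0.00. The tissue label fitted its markers, with Star at 5742 TPM in mouse 2, against 5127 TPM in mouse 1, and the medullary granin Chga at 703 and 751 TPM. On scaled counts, 1 of 5 cortex markers, Star, was higher in mouse 2 and 4 were lower, with log2 ratios from -0.16 to 0.06. Adipocyte markers were also present and 7 of 7 were higher in mouse 2, with log2 ratios of 0.33 to 0.79, while 6 of 6 chromaffin markers were lower, from -0.51 to -0.11. Kidney markers lay at or near 0, with Umod, Slc12a1 and Slc34a1 at 0 counts in both mice. In such bulk samples, fewer cells of a type and less RNA per cell cannot be told apart.

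Potassium-selective pores share a short stretch, the selectivity filter. In many of them, but not all, a threonine, any residue, a glycine, an aromatic residue or leucine, and a glycine follow each other there. Codons for this signature were searched in the coding sequence of the leading protein-coding transcript of each of the 74 potassium pore genes, on the coding strand. It was found in 62 of them. The search of the longest coding sequence of every nuclear protein-coding gene found it in 432 of 21853 genes, or 1.98%, and in 63 of the 74. Stretches of 33 bases from members whose levels are described below are shown, in GENCODE M21 transcripts on mm10, because they show what the pore genes have in common and where the families differ. Capitals mark the codons for glycine, the variable residue and glycine.
Kcnma1, calcium-activated, chr14:23528404-23528436, minus strand, exon 8: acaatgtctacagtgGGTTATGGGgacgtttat
Kcnt1, sodium-activated, chr2:25894358-25894390, plus strand, exon 11: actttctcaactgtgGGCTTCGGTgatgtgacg
Kcng3, voltage-gated family, chr17:83587905-83587937, minus strand, exon 2: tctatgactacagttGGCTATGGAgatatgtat
Kcnj2, inward rectifier, chr11:111072198-111072230, plus strand, exon 2: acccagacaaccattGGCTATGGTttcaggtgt
Kcnj8, ATP-sensitive, chr6:142566439-142566471, minus strand, exon 3: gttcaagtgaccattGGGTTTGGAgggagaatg
Kcnk5, first pore, across exons 2 and 3 on chromosome 14, minus strand: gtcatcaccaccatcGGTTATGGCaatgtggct
Kcnk5, second pore, chr14:20144639-20144671, minus strand, exon 4: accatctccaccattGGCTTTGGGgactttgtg

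The variable residue differed in frequency between the families. Among voltage-gated pore genes with a match it was tyrosine in 32 and phenylalanine in 1, Kcnh5. Among inward rectifiers it was tyrosine in 11 and phenylalanine in 2, Kcnj8 and Kcnj11, the pores of ATP-sensitive channels. The two-pore-domain genes carry both pores in 1 chain, and 11 of 12 held 2 matches. Their first match had tyrosine in 8 genes, whereas the second had phenylalanine in 9 and leucine in 2, Kcnk1 and Kcnk6, and none had tyrosine there. Of the 12 genes without a match, 7 were Kcnh genes, among them Kcnh2, and 3 were the calcium-activated Kcnn1, Kcnn2 and Kcnn3. No match says only that these letters were absent from the transcript searched.

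Of the 131 channel genes, 41 reached 1 TPM in both mice, which is 31.3%, beside 54.1% of all nuclear protein-coding genes. The median of the mean TPM was 0.31 over the channel genes and 1.85 over nuclear protein-coding genes. A further 85 lay below 1 TPM in both mice and 5 reached it in 1 mouse only. At the low end, 37 lay below 0.1 TPM in both mice and 4 had no count in either: Kcna10, Kcnj1, Kcnk16 and Kcnk18. Summed TPM was concentrated in few genes, since the top 10 members held 67.5% of it in mouse 2 and 66.8% in mouse 1.

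**Figure D1:**
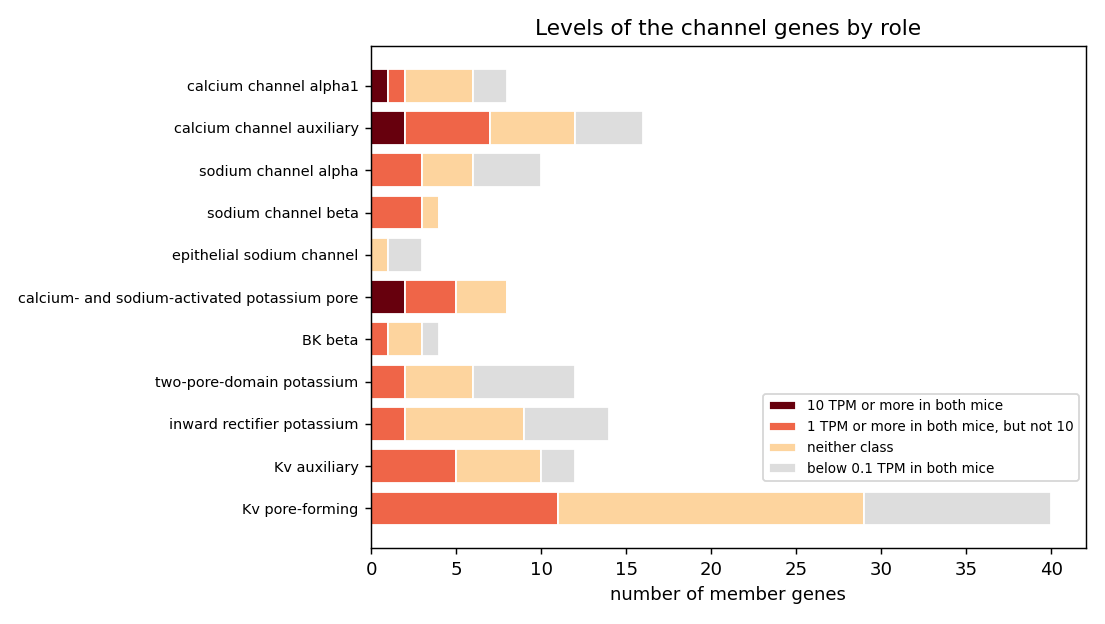
Number of channel genes (horizontal axis) in each role group, coloured by level: at least 10 TPM in both mice, at least 1 TPM in both but not 10, below 0.1 TPM in both, and neither. The 5 genes at 10 TPM or more belong to 3 groups, and the voltage-gated (Kv) potassium pore group is the largest, with 11 of 40 genes at 1 TPM or more in both mice.

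Among the potassium channel groups, the pores opened by calcium or sodium had the highest summed TPM. Their 8 genes, which include the sodium-activated Kcnt1 and Kcnt2 and the related Kcnu1, summed to 88.8 TPM in mouse 2, against 69.1 TPM in mouse 1. Kcnn2, the pore of a small-conductance channel that responds to calcium through bound calmodulin, was the most abundant of all 131 genes (chr18:45268860-45686024). It stood at 58.6 TPM in mouse 2, against 44.7 TPM in mouse 1, from 3849 and 3737 counts. Kcnma1, the pore of the large-conductance BK channel, which needs both voltage and calcium (chr14:23289431-24014491), stood at 23.3 TPM in mouse 2, against 19.0 TPM in mouse 1. The relatives of Kcnn2 were far lower, with Kcnn1 at 1.35 and 1.21 TPM, Kcnn3 at 1.19 and 1.10 TPM, and Kcnn4 at 0.44 and 0.20 TPM, in mouse 2 and mouse 1. Kcnt1 stood at 2.27 TPM in mouse 2, against 1.45 TPM in mouse 1. BK channels are tuned by beta subunits. Of the 4 genes, Kcnmb2, whose product inactivates the channel, was the only one at 1 TPM or more, at 3.61 TPM in mouse 2, against 1.78 TPM in mouse 1. Kcnmb4 stood at 0.25 and 0.42 TPM, Kcnmb3 at 0.21 and 0.02 TPM, and Kcnmb1, the subunit of smooth muscle, at 0.03 and 0.02 TPM. Kcnmb1 lies antisense within Kcnip1, and the strand setting of the counting is not given in the sources used here.

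Among the listed calcium channel pore genes, 1 stood far above the others. The T-type pore Cacna1h, left out of the list, stood as high, at 37.8 TPM in mouse 2, against 33.5 TPM in mouse 1. Cacna1c, the pore of the L-type channel of heart, smooth muscle and endocrine cells (chr6:118587240-119196418), stood at 36.2 TPM in mouse 2, against 33.3 TPM in mouse 1. Cacna1a, the P/Q-type pore of nerve terminals, stood at 2.45 and 2.92 TPM. The other 6 listed pore genes stayed below 1 TPM in both mice. Cacna1b, the N-type pore, was nearest, at 0.89 TPM in mouse 2, against 0.94 TPM in mouse 1, and the second quantification placed its mean at 1.25 TPM. Cacna1i, a T-type pore, stood at 0.26 and 0.22 TPM, and the muscle pore Cacna1s at 0.22 and 0.30 TPM. Cacna1e, the R-type pore, stood at 0.06 and 0.12 TPM, with a mean of 0.403 TPM in the second quantification. Cacna1g, also T-type, stood at 0.05 and 0.04 TPM, and the retinal Cacna1f at 0.04 TPM and 0.

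Among the 16 auxiliary calcium channel genes, 7 reached 1 TPM in both mice, and the group summed to 77.7 TPM in mouse 2, against 66.8 TPM in mouse 1. Cacna2d1, an extracellular subunit that carries channels to the membrane and binds gabapentin (chr5:15934691-16374511), stood at 40.8 TPM in mouse 2, against 32.7 TPM in mouse 1. Cacnb2, a cytoplasmic subunit bound to the pore (chr2:14603088-14987908), stood at 18.8 and 18.6 TPM. The other beta genes followed at 4.94 and 4.00 TPM for Cacnb3, 3.14 and 2.54 TPM for Cacnb1, and 0.14 and 0.11 TPM for Cacnb4. Cacna2d2 stood at 3.88 and 2.81 TPM and Cacna2d3 at 1.16 and 1.24 TPM. Of the gamma genes, Cacng7 led at 3.39 TPM in mouse 2, against 2.73 TPM in mouse 1, and Cacng8 stood at 0.91 and 1.32 TPM. Among the listed genes, the pores, extracellular and beta subunits were thus each led by 1 gene in both mice. Which subunits join in a channel was not tested.

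Voltage-gated sodium channels start the action potentials of chromaffin cells. Their 10 pore genes summed to 7.04 TPM in mouse 2, against 5.16 TPM in mouse 1. Scn3a, a pore best known from the developing brain, stood at 2.57 TPM in mouse 2, against 1.30 TPM in mouse 1. Scn7a, a channel that senses the sodium concentration rather than voltage, stood at 1.99 and 1.43 TPM, and Scn8a, a neuronal pore, at 1.23 and 1.56 TPM. Scn2a stood at 0.73 and 0.47 TPM, Scn9a at 0.29 and 0.22 TPM, and Scn1a at 0.16 and 0.13 TPM. The muscle pore Scn4a and the sensory neuron pores Scn10a and Scn11a had at most 5 counts in a library. Of the beta genes, single-pass subunits that adjust gating and adhesion, Scn3b stood at 3.52 TPM in mouse 2, against 2.65 TPM in mouse 1, Scn2b at 2.97 and 2.62 TPM, and Scn4b at 0.66 and 0.48 TPM.

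The epithelial sodium channel, through which aldosterone regulates salt uptake in the kidney, was low for all 3 subunit genes. Scnn1a stood at 0.45 TPM in mouse 2, against 0.40 TPM in mouse 1. Scnn1b was at 0 counts in mouse 2, against 4 counts in mouse 1, and Scnn1g at 0, against 3. At 0 counts the upper limit, covering counting error alone, was 0.0932 CPM (counts scaled to library size) in mouse 2, against 0.0821 CPM in mouse 1. Scnn1b and Scnn1g were therefore not distinguishable from 0 at this depth in mouse 2.

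Two-pore-domain genes, whose channels leak potassium at rest, were mostly low once Kcnk3 and Kcnk9 were set aside. Kcnk2, a channel opened by membrane stretch and lipids, stood at 7.30 TPM in mouse 2, against 6.71 TPM in mouse 1. Kcnk5, opened by alkaline conditions, stood at 5.81 and 6.57 TPM. The other 10 genes lay below 1 TPM, led by Kcnk1 at 0.83 and 0.81 TPM, and 6 of the 12 lay below 0.1 TPM in both mice. Among the 14 inward rectifier genes, Kcnj8, the ATP-sensitive pore of vascular muscle and pericytes, stood at 3.11 TPM in mouse 2, against 3.15 TPM in mouse 1. Kcnj2, a strong inward rectifier, stood at 3.25 TPM in mouse 2, against 1.81 TPM in mouse 1. The next, Kcnj12, stood at 0.83 and 0.69 TPM, and Kcnj11, the ATP-sensitive pore of pancreatic beta cells, at 0.59 and 0.77 TPM.

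The 40 voltage-gated potassium pore genes summed to 41.1 TPM in mouse 2, against 35.8 TPM in mouse 1, with 11 of them at 1 TPM or more in both. Kcnh2, known as hERG and needed for cardiac repolarisation, led at 8.29 TPM in mouse 2, against 7.39 TPM in mouse 1. Kcng3, which forms no channel alone and modifies other voltage-gated pores, stood at 4.32 and 4.41 TPM. Kcnc4, a fast-deactivating channel, stood at 3.62 and 3.0 TPM. Kcnq3, a pore of the M-current that damps firing, stood at 2.40 TPM in mouse 2, against 2.17 TPM in mouse 1. The A-type pores Kcnd3 and Kcnd2 stood at 1.65 and 1.52 TPM in mouse 2 and at 1.5 and 1.45 TPM in mouse 1. Kcna5 stood at 1.51 TPM in mouse 2, against 1.18 TPM in mouse 1, and Kcnq1, the pore of the slow cardiac delayed rectifier, at 1.31 and 1.42 TPM.

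Auxiliary subunits of voltage-gated potassium channels reached 1 TPM in both mice in 5 of 12 genes. Kcne4, a single-pass subunit that inhibits Kcnq1, stood at 3.37 TPM in mouse 2, against 2.81 TPM in mouse 1. Cytoplasmic beta subunits resemble oxidoreductase enzymes, and Kcnab3 stood at 2.67 and 3.09 TPM and Kcnab2 at 2.38 and 2.18 TPM. The calcium-binding partners of A-type pores, Kcnip3 and Kcnip1, stood at 1.96 and 1.58 TPM in mouse 2 and at 2.23 and 2.39 TPM in mouse 1. The other Kcne genes were at or below 0.30 TPM in each mouse.

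**Figure D2:**
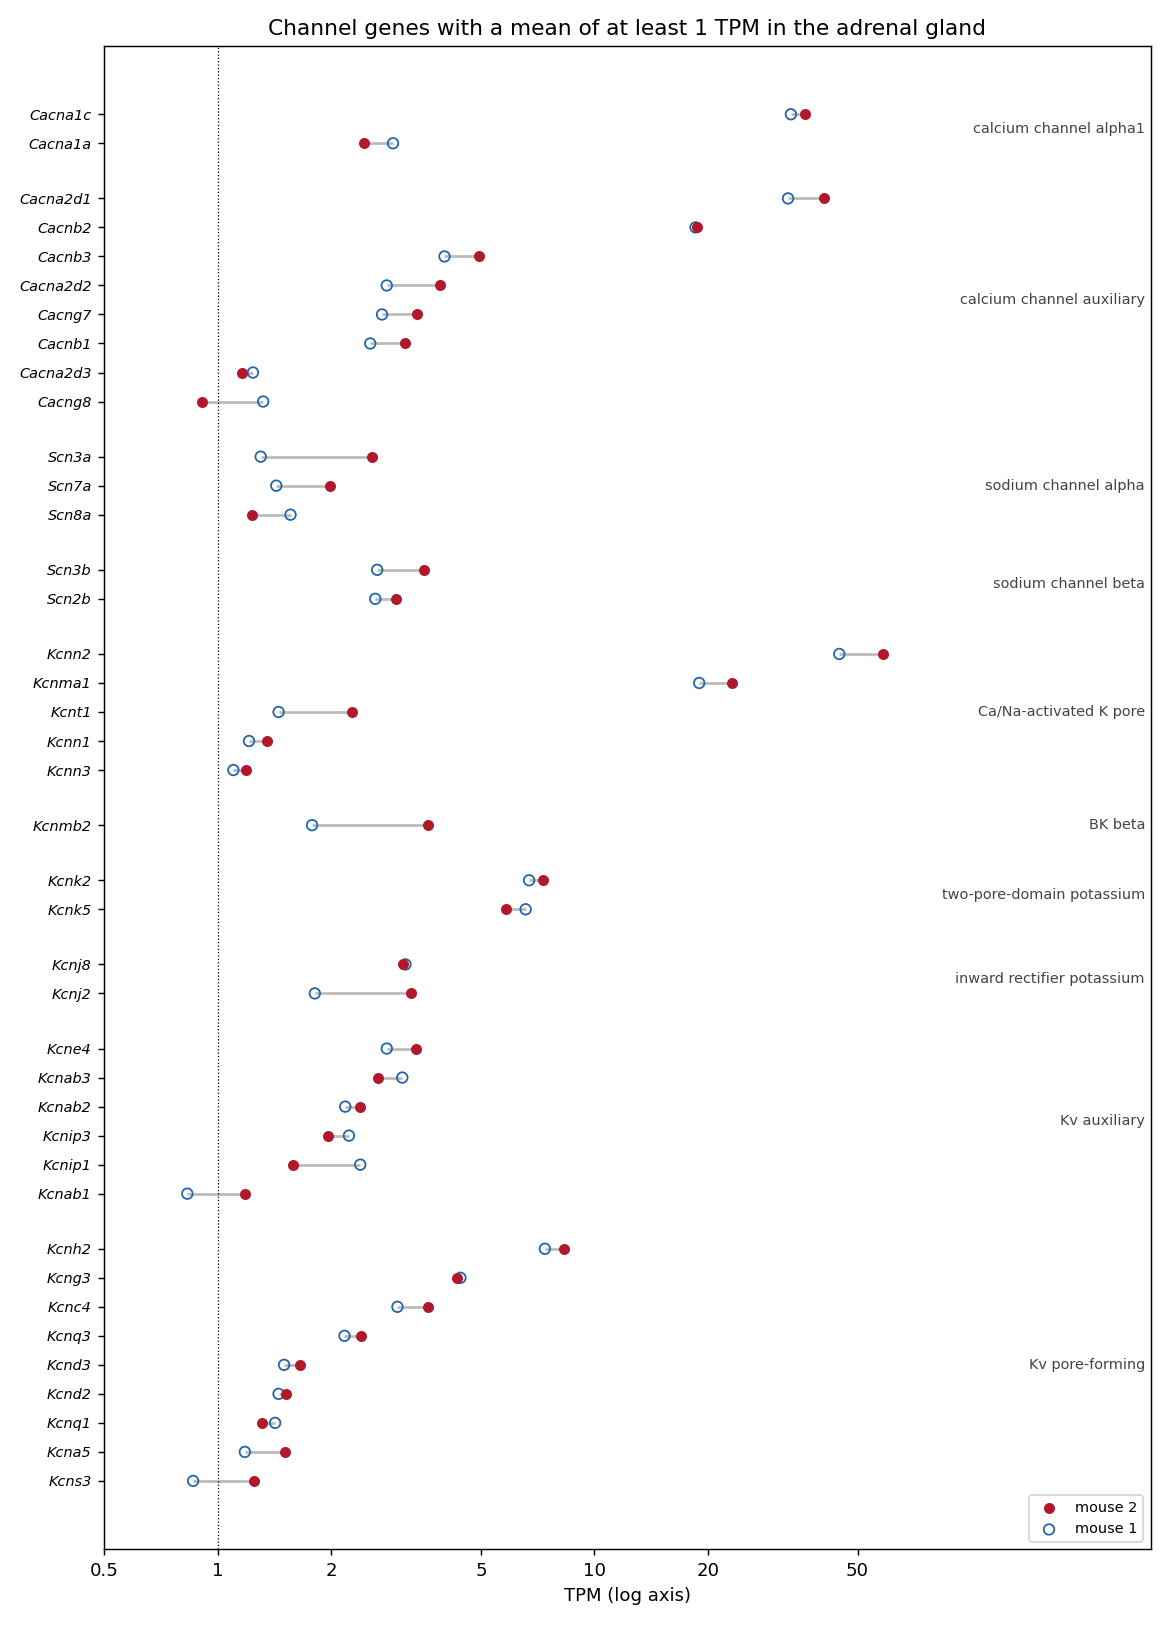
TPM (horizontal log axis) of 40 of the 44 channel genes that averaged 1 TPM or more, grouped by role, with filled points for mouse 2, open points for mouse 1 and a grey bar between them. Kcnn2, Cacna2d1, Cacna1c, Kcnma1 and Cacnb2 lie above 10 TPM in both mice, and the dotted line marks 1 TPM.

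The channels left out of the list stood as follows in mouse 2 and mouse 1. Kcnk3, an acid-sensitive leak channel of the outer cortex, stood at 534 and 470 TPM, above every listed gene. The T-type pore Cacna1h stood at 37.8 and 33.5 TPM, Kcnk9 at 17.8 and 17.3 TPM, Cacna1d at 4.56 and 3.87 TPM, and Scnm1, a splicing factor, at 11.9 and 8.83 TPM. Kcnj5 stood at 0.31 and 0.19 TPM, against 1.44 and 0.946 TPM in the second quantification.

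Partners of these channels were read from a list of 36 genes, of which 35 were annotated and 22 reached 1 TPM in both mice. Calmodulin, the calcium sensor of Kcnn2 channels, was abundant, with Calm2 at 173 TPM in mouse 2, against 157 TPM in mouse 1. Gem, a small GTPase that inhibits calcium channels, stood at 28.0 and 34.1 TPM. Lrrc55, an auxiliary subunit of BK channels, stood at 6.11 and 4.11 TPM, while its relative Lrrc26 had no count. Abcc9, the regulatory subunit that pairs with Kcnj8, stood at 4.31 and 3.29 TPM, and Abcc8, the partner of Kcnj11, at 1.01 and 0.82 TPM. The sodium leak channel Nalcn stood at 2.17 and 2.37 TPM. Of 31 partners tested between the mice, 5 were higher and 6 lower in mouse 2 beyond counting noise, or 35.5% in all, beside 21.3% of all tested genes, with Gem at a log2 ratio of -0.46 and Lrrc55 at 0.37.

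The question of how far the mice differed was asked of the 91 channel genes that averaged 10 or more counts. The other 40 had too few counts, so these 91 are not all members. Their median log2 ratio of mouse 2 over mouse 1 was -0.01, with 44 higher and 47 lower. An exact two-sided binomial test with Benjamini-Hochberg adjustment over all 17666 genes tested called 6 channel genes higher and 8 lower in mouse 2. The test called 10.4% of all genes higher and 11% lower. In all, 15.4% of the channel genes and 21.3% of all genes were called. Where the mean reached 100 counts, 12 of 43 channel genes were called, or 27.9%, beside 26.2% of all such genes. At least 2-fold differences were rarer. Of the channel genes 1 was 2-fold higher in mouse 2, beside 1.15% of all genes, and 0 were 2-fold lower, beside 1.81%. That gene, chosen after its values were seen, was Kcnh1, with 18 counts in mouse 2 and 7 in mouse 1, a log2 ratio of 1.27 and an adjusted p of 0.0686 in the exact binomial test.

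The 6 higher genes came from several roles. Kcnj2 had the largest ratio among members with at least 100 counts, at 570 counts in mouse 2, 393 counts in mouse 1, a log2 ratio of 0.67 and an adjusted p of 2.68e-11 in the exact binomial test. It has 1 annotated transcript, so no shift between transcripts enters its TPM. Scn7a had 473 counts in mouse 2, against 421 counts in mouse 1, a log2 ratio of 0.30. The abundant Kcnma1, Kcnn2 and Cacna2d1 passed the test at smaller ratios of 0.19, 0.18 and 0.16. Cacna1c, with 8562 counts in mouse 2 and 9302 in mouse 1, had a ratio of 0.02 and did not pass, with an adjusted p of 0.702 in the exact binomial test.

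The 8 lower genes included 3 of the 8 auxiliary genes of voltage-gated potassium channels that were tested, or 37.5%, beside 11% of all genes, a group singled out after its values were seen. Kcnip1 had 89 counts in mouse 2 and 170 in mouse 1, a log2 ratio of -0.79 and an adjusted p of 1.97e-04 in the exact binomial test. Kcnab1 had 58 and 102 counts (-0.66) and Kcnip3 146 and 221 counts (-0.46). Of the pores, Kcnq3 stood at -0.40, Kcnk5 at -0.35 and Scn8a at -0.35, and Cacnb2 at -0.12. Kcnd1, an A-type pore named after its values were seen, had 47 counts in mouse 2 and 100 in mouse 1, a ratio of -0.93. None of the 8 was 2-fold apart. The cortex, chromaffin and adipocyte markers that moved between the mice are given above, and their part in these ratios was not tested.

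**Figure D3:**
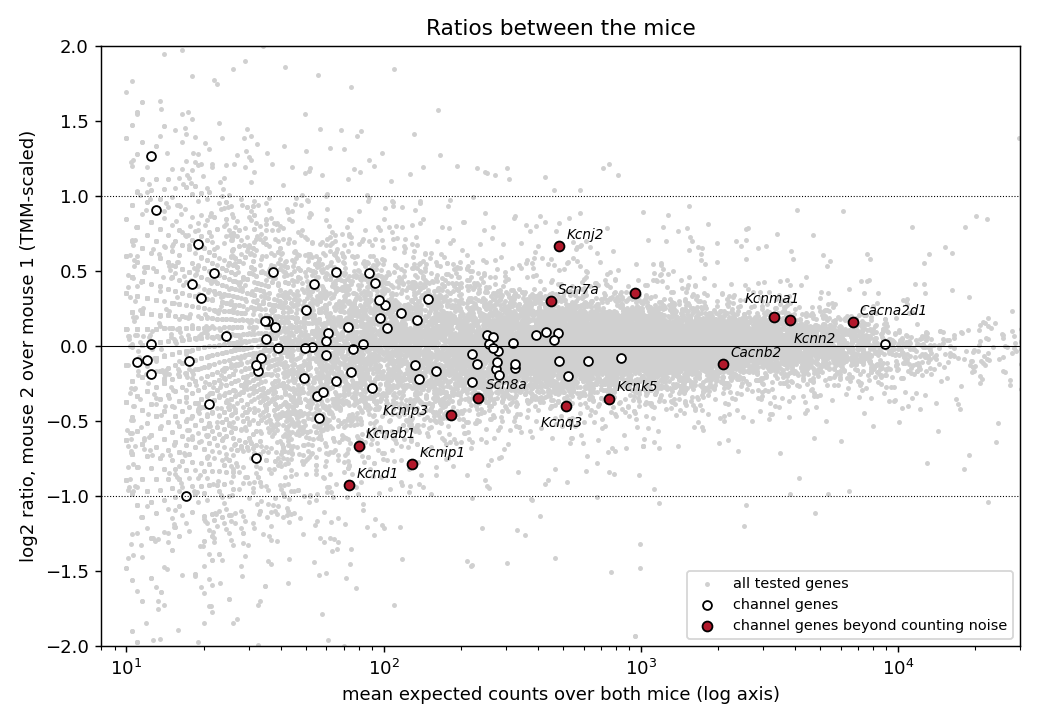
Log2 ratio of mouse 2 over mouse 1 (vertical axis, TMM-scaled counts) against mean expected counts (horizontal log axis), with grey points for all tested genes, open points for channel genes and filled points for those beyond counting noise, 13 of them named. A few genes fall outside the axes, and dotted lines mark 2-fold. Among the called channel genes, Kcnj2 at 0.67 is the highest and Kcnd1 at -0.93 the lowest.

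Transcript structure changed some TPM values between the mice. The effective length of a gene, averaged over its transcripts by abundance, enters TPM but not the counts, and it was at least 25% longer in one mouse in 5 of the 44 genes that averaged 1 TPM or more. Scn3a had 295.6 counts in mouse 2 and 353.5 in mouse 1, a scaled ratio of -0.12, yet its TPM was higher in mouse 2. Its short transcript Scn3a-203, of 365 bases, took 13.8 counts and 1.59 TPM in mouse 2 and 2.43 counts and 0.22 TPM in mouse 1. For Kcnab1 the directions were opposite, with counts lower in mouse 2 and TPM of 1.18 in mouse 2 and 0.83 in mouse 1. The noncoding transcript Kcnab1-203, of 534 bases, held 10.4 counts and 0.73 TPM of it in mouse 2 and none in mouse 1. The second quantification gave Kcnab1-203 68.8% of the gene in mouse 2 and 31.5% in mouse 1, so its absence in mouse 1 depends on the method. Kcnmb2 was higher in mouse 2 on both measures, with log2 ratios of 0.22 for scaled counts and 1.02 for TPM. Its transcript Kcnmb2-206, of 338 bases, gave 2.23 of its TPM in mouse 2 and 0.56 in mouse 1, from 17.4 and 5.41 counts. In these 3 genes a short transcript with at most 17.4 counts in a library moved the TPM of the gene. Kcnq3 and Kcnn1 were the other genes, with length ratios of 0.77 and 1.44. For Kcnq3 the log2 ratio was -0.40 for scaled counts and 0.15 for TPM, and for Kcnn1 0.49 and 0.16.

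**Figure D4:**
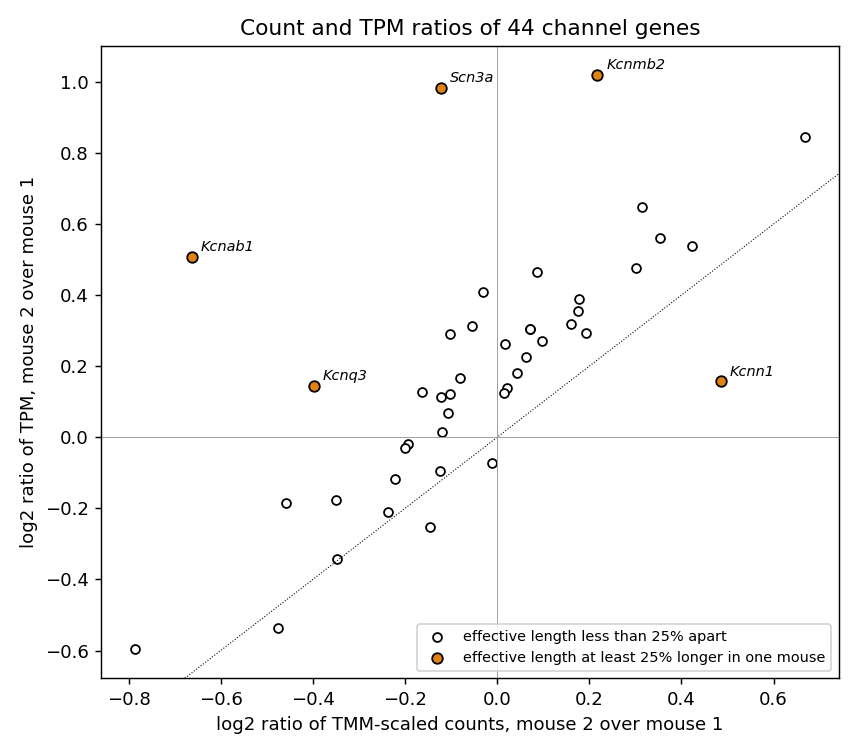
Log2 ratio of TPM (vertical axis) against log2 ratio of TMM-scaled counts (horizontal axis), both mouse 2 over mouse 1, for 44 channel genes, with the line of equality dotted. Most points lie above the line (over nuclear protein-coding genes the median TPM ratio was 0.17). The 5 filled points are the genes whose effective length was at least 25% longer in one mouse.

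Among the 44 genes, 39 had more than 1 annotated transcript. The leading transcript, by its mean share over both mice, held at least 90% of the gene in 10 of the 44 and under 50% in 16. Of the 10, 5 have 1 annotated transcript, which fixes their share. For Kcnn2 the transcript Kcnn2-203 held 34.2% in mouse 2 and 43.3% in mouse 1, and Kcnn2-208 held 28.8% and 20.5%. Cacna1c-216 held 36.5% and 37.1% of its gene, followed by Cacna1c-207 at 28.6% and 25.3%. Kcnma1-221 held 49.2% and 36.9%, against 36.7% and 24.2% in the second quantification, and Cacnb2-203 held 56.3% and 51.5%. Cacna2d1-202 held 50.1% in mouse 2 and 44.8% in mouse 1, but 22.2% and 7.03% in the second quantification, so its share depends on the method. The second quantification ranked the same transcript first in 35 of the 44, which include the 5 with 1 annotated transcript, where no other could lead.

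The leading transcript was not protein-coding in 3 genes. Kcnk2-203, annotated for nonsense-mediated decay, held 51.9% of Kcnk2 in mouse 2 and 52.2% in mouse 1. Kcnab3-203, a retained intron, held 58.1% and 62.0% of Kcnab3, against 52.6% and 45.5% in the second quantification, where the protein-coding Kcnab3-201 led in mouse 1 at 51.9%. Kcnt1-205, also annotated for decay, led Kcnt1 on the mean of both mice and in mouse 1, at 27.9%, from 8.1 counts. In mouse 2 it held 18.2%, from 6.7 counts, below the retained introns Kcnt1-209 at 26.3% and Kcnt1-214 at 22.9%. Retained introns together took 68.0% of Kcnt1 in mouse 2 and 55.9% in mouse 1. Of Kcnt1, 14.0% and 16.6% was protein-coding, and 24.2% and 16.1% in the second quantification. Of Cacnb2, 32.5% in mouse 2 and 30.5% in mouse 1 was retained intron. Kcng3, Kcnj8, Kcne4, Scn2b, Kcnmb2 and Kcnip3 were entirely protein-coding in both quantifications. For Kcng3, Kcnj8, Kcne4 and Scn2b this was fixed in advance, since every annotated transcript of theirs is protein-coding. Whether the annotation also fixes it for Kcnmb2 and Kcnip3 was not examined. Kcnk5 was entirely protein-coding in the first, but at 77.8% in mouse 2 and 81.3% in mouse 1 in the second. For Kcnc4 and Kcnj2 a single annotated transcript fixes the share. Counted from protein-coding transcripts alone, 34 channel genes reached 1 TPM in both mice, in place of 41.

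**Figure D5:**
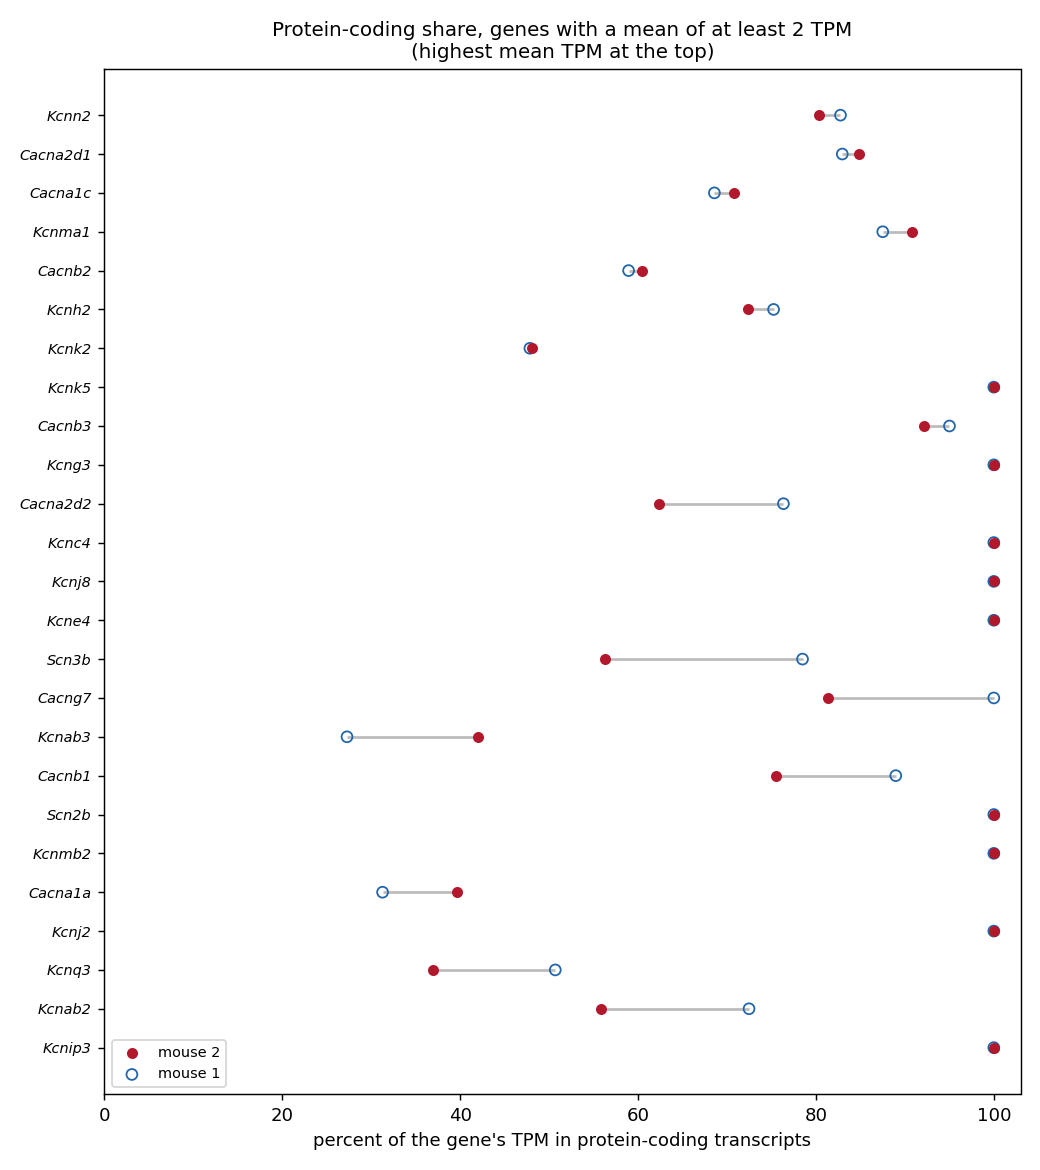
Percent of each gene's TPM in protein-coding transcripts (horizontal axis) for 25 of the 28 channel genes that averaged 2 TPM or more, highest mean TPM at the top, with filled points for mouse 2 and open points for mouse 1. Kcnab3 lies at 41.9% and 27.3% (47.4% and 51.9% in the second quantification, not drawn), and Cacna1a at 39.6% and 31.3%. At 100% in both mice lie 9 genes. Among them, Kcnc4, Kcnj2, Kcng3, Kcnj8, Kcne4 and Scn2b have only protein-coding transcripts annotated, which fixes their share.

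The 2 quantifications of each library placed the channel genes close together. Of the 44 genes that averaged 1 TPM or more, 0 were 2-fold apart, beside 0.858% of nuclear protein-coding genes. The median absolute log2 ratio was 0.12 for both sets. Scn8a differed most, at 1.23 TPM in mouse 2, against 1.56 TPM in mouse 1 in the first and 2.17 and 2.06 TPM in the second, and Cacnb3 followed at 6.95 and 4.44 TPM in the second. Kcne4 differed most in the other direction, at 2.65 and 2.27 TPM in the second. Of the 41 genes, 39 also reached 1 TPM in both mice in the second quantification.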

How the data were processed

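Total RNA of the adrenal gland was sequenced from 2 mice of 1 group, on mm10 with GENCODE M21 per the deposited text files. The names of the programs for alignment and quantification, and the strand setting, were not given in the sources used here. Reads of CAST alleles were placed on the reference of another strain. The authors' gene and transcript tables hold expected counts, made from transcriptome alignments, with TPM and FPKM beside them per the file headers. The deposited transcript tables also list the percent of a gene held by each transcript, and the gene tables a posterior SD of the count, treated as a score. The second quantification is a deposited transcript table of estimated counts and TPM made from the reads and a transcript index, summed here to genes; 86 genes had no row in it.

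Rows that name no gene held 0.527% of counts in mouse 2 and 0.503% in mouse 1 and stayed out of totals and tests. The symbol rule matched 138 genes, of which 6 excluded channels and Kcnrg, which is no subunit, were dropped. The members, role groups, partner list and cell type markers were chosen with earlier results of these data known. Detection was set at 1 TPM in both mice. Log2 ratios used expected counts scaled by TMM in R 4.3.3 with edgeR 4.0.16, a prior count of 2 and a filter on mean counts below 10. The exact two-sided binomial test used rounded counts and was adjusted by Benjamini-Hochberg at 0.05. Quantifications were compared on mean TPM plus 0.1. Tested on simulated data of counting noise only over 17666 genes, for mouse 2 against mouse 1, the test passed 88.1% of 67 genes changed 3-fold and 5 of 17466 unchanged genes. Effective lengths, transcript shares and coding matches were computed in Python 3.11.15 with pandas 2.3.3, numpy 2.4.6 and scipy 1.17.1. No protein table was used, so the filter signature was searched in translated coding sequence.

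Genes were named by rule: the 3 of highest mean TPM in each role group, the 5 largest log2 ratios in each direction at 100 counts or more, the 5 largest ratios between quantifications in each direction at 1 TPM or more, and all calcium and sodium pore genes. Other channel genes were named after their values were seen. Some genes this rule picks are not reported here by name, and they stay in the counts, sums and tests. Alternatives were other thresholds, filters, prior counts and pseudocounts, total count and DESeq2 1.42.0 scaling, FPKM, nuclear protein-coding genes alone, the second quantification and each mouse alone.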

Additional observations from a re-analysis of the deposited data

Results flagged for a closer look

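Kcnq1ot1, an antisense RNA that overlaps the potassium channel gene Kcnq1 on chromosome 7 (143203458 to 143296549, minus strand, mm10) and belongs to no comparison above, stood at a mean of 1.265 TPM, with 1.18 TPM in mouse 2 and 1.35 TPM in mouse 1. It was singled out because its counts, 3611 in mouse 2 and 5122 in mouse 1, lay above what a count of 0 allows. Kcnq1 itself had 120 and 154 counts. The log2 ratio of Kcnq1ot1 was -0.37, with an adjusted p of 1.57e-30 in the exact binomial test with Benjamini-Hochberg adjustment, and that of Kcnq1 was -0.22. Whether reads of the antisense RNA entered the counts of Kcnq1 was not tested.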

How the results depend on the processing

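No paired analysis was possible because the labels give 1 group. At a threshold of 5 TPM, 8 channel genes were detected in both mice, in place of 41. Other settings gave 53 at 0.5 TPM, 40 in the second quantification, 42 in FPKM, 61 after rescaling to nuclear protein-coding genes, 45 without mouse 1 and 42 without mouse 2. Protein-coding transcripts alone, an alternative chosen after seeing the data, gave 34. In place of 1 channel gene 2-fold higher in mouse 2, there were 6 with no filter on counts, 0 where the mean had to reach 100 counts and 2 with a prior count of 0.5. In place of 0 that were 2-fold lower, there were 5 with no filter, 2 by the second quantification, 1 when only nuclear protein-coding genes entered and 1 with a prior count of 0.5. By construction, filters change how many genes are tested, and rescaling to nuclear protein-coding genes raises every TPM above 0. The cause of the other changes was not tested. The channel genes beyond counting noise numbered 12 to 14, their median log2 ratio ran from -0.03 to 0.04, and none was 2-fold apart between quantifications, under any alternative run for these results. A leading transcript held at least 90% of its gene in 8 genes in the second quantification, in place of 10. Of 54 named genes, the second quantification moved 9 up and 9 down by over 1 SD, and 7 moved up in FPKM. Rescaling, which raises every value above 0, moved 53 up. An antisense gene overlaps 58 of the 131 genes, and a count per mouse limits genes below 0.1 TPM to a few reads.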

Other observations

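Some channel genes that neighbour each other on a chromosome stood at unlike levels, while others, such as Scn10a and Scn11a on chromosome 9, were both at or near 0. On chromosome 2, Scn3a, Scn2a, Scn1a, Scn9a and Scn7a lie in this order between 65457118 and 66784914. The outer genes, Scn3a and Scn7a, were those at 1 TPM or more in both mice, while Scn2a, Scn1a and Scn9a between them lay at 0.13 to 0.73 TPM. In the second quantification Scn3a stood at 3.12 TPM in mouse 2, but at 0.984 TPM in mouse 1, just under that threshold. The deposited counts of Scn1a, Scn2a, Scn3a and Scn9a were not whole numbers, and their posterior SD was 0.707% to 2.19% of the count in mouse 2 and 0.651% to 2.15% in mouse 1. On chromosome 11, Kcnj2 stood at 3.25 TPM in mouse 2, against 1.81 TPM in mouse 1, while Kcnj16, which ends before it at 111027968, had 0 counts and 1 count. On chromosome 14, Kcnk5 stood at 5.81 TPM in mouse 2, against 6.57 TPM in mouse 1, while Kcnk16 had no count in either mouse.

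Several potassium channel genes of the Kcna family lie side by side, while Kcna4 and Kcna7 lie apart from these. On chromosome 6, Kcna5 stood at 1.51 TPM in mouse 2, against 1.18 TPM in mouse 1. Its neighbours Kcna1 and Kcna6 stood at 0.26 and 0.22 TPM in mouse 2 and at 0.23 and 0.17 TPM in mouse 1. On chromosome 3, Kcna2 stood at 0.40 and 0.25 TPM, Kcna3 at 0.27 and 0.26 TPM, and Kcna10 had no count. The neighbours described here, on all these chromosomes, were chosen after their values were seen.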
